A study of Brassica napus with 17 samples.

Results

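In cultured Brassica napus microspores given heat stress together with trichostatin A (TSA), a set of 401 genes stood at least 1.5 log2 units higher at day 4 than at day 2. Most of the same genes were low in fresh microspores, but 10 of the 401 already stood at a mean log2 level of 4 or more there. In cultures given heat stress alone, 309 of the 401 were also called higher at day 4 than at day 2, against 22.2% of all genes tested. Another 91 did not pass the test. The last 1 was called lower, against 23.2% of all genes, and this call was lost in several alternative fits. By day 8 of the TSA cultures 334 of the 401 were at least 1 log2 unit below their day 4 level, as were 26407 of all 68491 genes. Time, TSA dose and sequencing run cannot be told apart in that contrast, and its day 4 libraries also chose the members. The members were chosen from the authors' deposited log2 CPM values (log2 of counts per 1000000 of a scaled library) by 2 conditions on group means. The mean of the heat plus TSA day 4 libraries had to be at least 4, and it had to exceed the mean of the heat plus TSA day 2 libraries by at least 1.5. This gave 401 of the 68491 genes in the deposited table, which is 0.585%. Another 11914 genes met the level condition alone and serve as a comparison set below.

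A microspore is the immature pollen grain. In B. napus, a heat stress given late in the unicellular stage can turn part of the microspores in a culture from the pollen programme to the formation of haploid embryos. TSA inhibits histone deacetylases, the enzymes that take acetyl groups off histone tails. Acetylated histones are a mark of open, transcribed chromatin, and inhibitors of these enzymes are used in plant tissue culture to alter cell fate. B. napus carries an A and a C subgenome, so that many genes exist as near-identical copies, and the A or C in a gene ID such as BnaA04g15830D or BnaC04g39100D names the subgenome.

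All 17 libraries came from cultures of the genotype DH12075 carrying a LEC1-GFP reporter, started from late unicellular microspores. The series design calls the replicates biological. Day 0 cultures were untreated (3 libraries). Heat-only cultures spent 24 hours at 33 °C and then 1 or 3 days at 25 °C, and were sampled at day 2 and day 4 (3 libraries each). Per the labels this treatment served to induce embryogenesis. Heat plus TSA cultures had TSA in the medium during the 24 hours of heat, were then moved to fresh medium, and were sampled at day 2, day 4 (3 libraries each) and, after 7 days at 25 °C, day 8 (2 libraries). Per the labels this treatment served to induce callus. Day 2 cultures received 0.5 µM TSA and day 8 cultures 0.05 µM. For day 4 the titles state 0.5 µM but the treatment field states 0.05 µM, so any comparison of day 4 with day 2 may also be one of dose, and the possibilities cannot be told apart. Each library pools very many microspores. In such bulk samples fewer cells of a type and less RNA per cell cannot be told apart.

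Sequencing depth lay between 2716279 counts (day 0 replicate 3) and 31407037 counts (replicate 1 of heat plus TSA day 4). A gene with 0 counts is listed at -6.40, -6.0 and -3.02 log2 CPM in the 3 day 0 libraries, and 3 counts stand for -3.59, -3.20 and -0.22. Day 0 replicate 3 therefore resolves few of the low levels described below. The library sizes behind the deposited values were 1.5 to 1.54 times the total counts at day 0 and 0.4 to 0.6 times at heat-only day 4, so levels depend on the authors' scaling. The labels name a sequencing run, with a lane for each replicate, for day 0, heat plus TSA day 2 and heat plus TSA day 8 only. Run and group cannot be told apart wherever 1 of these 3 groups is set against heat-only day 2, heat-only day 4 or heat plus TSA day 4. None of the 25 marker symbols listed for embryo, pollen and callus was paired with a gene ID, so the cell types were not checked. The reference listed 15 of the 401 IDs, all as protein-coding genes and none under another name. No file used here links an ID to a function, and no role is given for any gene below.

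The members' levels moved widely over the culture. Over the 401 genes the median of the group means was -3.43 log2 CPM at day 0, 0.06 in heat-only day 2 and 3.59 in heat-only day 4. In heat plus TSA cultures it was 3.20 at day 2, 5.30 at day 4 and 0.33 at day 8. Over all 68491 genes the same medians stayed between 0.74 and 1.64, and over the 11914 comparison genes between 4.31 and 4.88. By library, the members' median was -4.08, -3.20 and -3.02 at day 0, -0.15, 0.19 and 0.32 in heat-only day 2, and 2.57, 4.27 and 3.90 in heat-only day 4. It was 3.02, 3.51 and 3.27 in heat plus TSA day 2, 5.39, 5.45 and 5.39 in day 4, and -1.15 and 1.5 in day 8. The 6 groups did not overlap in this median, except that the heat plus TSA day 2 libraries fell within the range of heat-only day 4 and heat-only day 2 within that of heat plus TSA day 8.

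**Figure D1:**
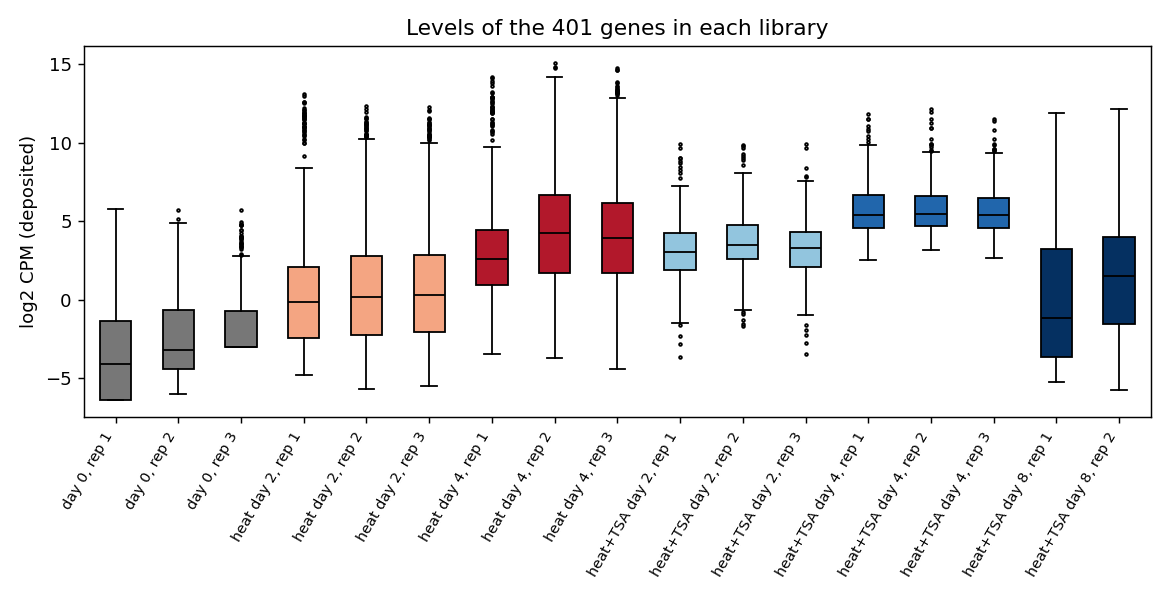
Deposited log2 CPM of the 401 genes in each of the 17 libraries, coloured by group. Boxes span the quartiles, with the median as a line, whiskers reach 1.5 times the box height, and points lie beyond. The medians are lowest at day 0, between -4.08 and -3.02, and highest in heat plus TSA day 4, between 5.39 and 5.45, and the day 8 libraries differ from each other.

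The set took a small share of the counts at day 0, and its later share was led by different genes with and without TSA. Its members held 0.0987% ± 0.00351 (SD, n = 3) of all counts at day 0, 7.73% ± 1.87 (n = 3) in heat-only day 2 and 15.8% ± 0.814 (n = 3) in heat-only day 4. In heat plus TSA cultures they held 1.49% ± 0.343 (n = 3) at day 2, 5.52% ± 0.654 (n = 3) at day 4 and 1.91% ± 0.226 (n = 2) at day 8. Of the members, 37 were among the 100 genes most abundant in heat-only day 4, and these alone held 7.34% ± 1.82 (n = 3) in heat-only day 2 and 14.8% ± 0.577 (n = 3) in heat-only day 4. The other 364 members held 0.394% ± 0.0481 and 1.08% ± 0.224 in these groups (n = 3 each). These 364 genes held, with TSA, 1.44% ± 0.393 (n = 3) at day 2, 5.35% ± 0.703 (n = 3) at day 4 and 1.90% ± 0.216 (n = 2) at day 8. Without the 37 genes the largest share was that of heat plus TSA day 4, and with them that of heat-only day 4. All members were chosen for a high heat plus TSA day 4 level, and the 37 were picked for theirs in heat-only day 4. Which group had the largest share is partly set by these choices, so nothing is read from it. At day 0, 73 members had 0 counts in all 3 libraries and 180 had at most 3 counts in sum. Only 71 had a day 0 mean of 0 log2 CPM or more and 10 a mean of 4 or more. Members with 0 counts in every library of a group numbered 15 in heat-only day 2, 1 in heat-only day 4 and 23 in heat plus TSA day 8.

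The contrast that chose the members, heat plus TSA day 4 minus day 2, ranged from 1.5 to 7.79 log2 units with a median of 2.15. It is given as a description and was not tested. In 366 of the 401 genes every day 4 library lay above every day 2 library, a pattern found in 16.0% of all genes. Nothing is read from that count, since the rule used these libraries. At the edge of the rise condition, BnaA08g02790D and BnaC04g36920D lay just inside, with 1.5 and 1.503, and BnaA04g28860D and BnaA08g18320D just outside, both with 1.497. At the edge of the level condition, BnaA05g03470D and BnaA03g36860D lay just inside, with means of 4.0 and 4.013, and BnaC09g50270D and BnaA10g19340D just outside, with 3.997 and 3.993. The limits therefore cut through a continuous range of values. Within 0.1 of the rise limit lay 99 genes of sufficient level, 41 of them inside.

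The largest rise was that of BnaCnng15630D. In heat plus TSA day 2 its libraries stood at -3.69, -1.70 and -3.49 log2 CPM, from 2, 9 and 1 counts. In day 4 they stood at 5.12, 4.67 and 4.69, from 1197, 411 and 693 counts. All day 4 libraries were far above all day 2 libraries. The same gene had 1, 0 and 0 counts at day 0 and 1 count in each heat-only day 2 library, against 26, 87 and 141 counts in heat-only day 4, so it appeared between day 2 and day 4 with and without TSA. At day 8 it was back to 4 and 50 counts.

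BnaA03g47170D, with the second largest rise of 6.11, had levels of -0.52, -0.82 and -2.27 in heat plus TSA day 2 and 5.39, 4.42 and 4.92 in day 4. BnaA09g06380D, with a rise of 5.74, went from -1.15, 0.03 and 0.13 to 5.62, 5.47 and 5.15. Neither gene's groups overlapped. BnaA09g06380D had 0 counts in all day 0 and all heat-only day 2 libraries and 6, 99 and 81 counts in heat-only day 4. With 3 counts over the group as the limit that a count of 0 allows, the ratio of its summed scaled counts, heat-only day 4 to day 2, was at least 7.38 log2 units. This limit covers counting error only and not the spread between the day 4 libraries. The rises of BnaCnng22380D, BnaA06g25170D and BnaA01g26120D were 5.65, 5.33 and 5.21.

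The members with the highest level in heat plus TSA day 4 were BnaA04g15830D, BnaCnng22550D, BnaC04g39100D and BnaA06g04140D. BnaA04g15830D stood at -4.08, -0.03 and -0.70 at day 0, 3.03, 4.38 and 4.21 in heat-only day 2, and 7.22, 10.32 and 9.81 in heat-only day 4. With TSA it stood at 9.68, 9.81 and 9.92 at day 2, 11.85, 11.98 and 11.51 at day 4, and 1.31 and 6.32 at day 8. Its TSA day 2 libraries lay within the range of heat-only day 4, and its TSA day 4 libraries lay above every other library. Without TSA it rose by 5.41 ± 1.07 log2 units (SE) from day 2 to day 4 (edgeR quasi-likelihood test, adjusted p = 8.11e-04). BnaC04g39100D, on the C subgenome, followed it closely, with heat plus TSA day 4 libraries at 11.50, 11.53 and 11.40 and day 8 libraries at 0.70 and 6.02. BnaA06g04140D had a narrower heat-only spread, at 4.47, 4.12 and 4.02 in day 2 and 7.34, 7.43 and 7.40 in day 4, a rise of 3.01 ± 0.55 (edgeR adjusted p = 3.75e-04). In heat plus TSA day 4 it stood at 11.07, 10.94 and 10.26, above all heat-only libraries.

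**Figure D2:**
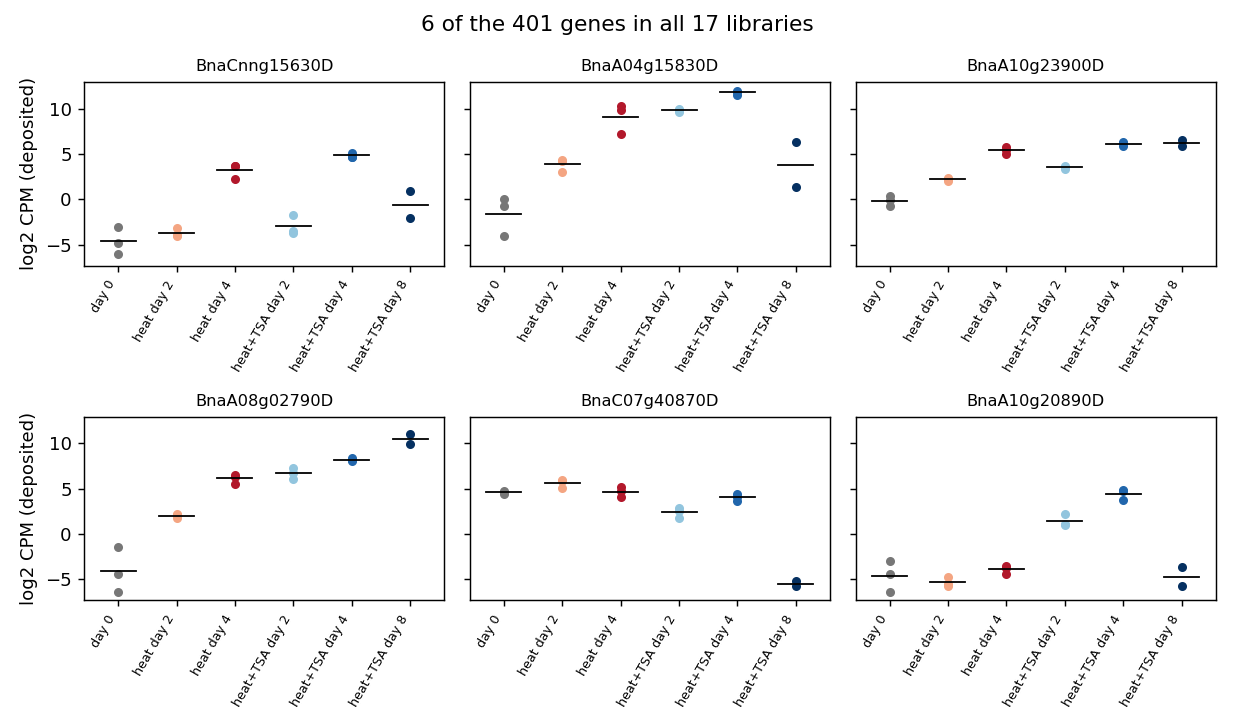
Deposited log2 CPM of 6 named members in every library, 1 point per library and a line at each group mean (n = 3, and 2 at heat plus TSA day 8). BnaCnng15630D is low until day 4 with and without TSA, BnaA04g15830D is highest in heat plus TSA day 4, BnaA10g23900D and BnaA08g02790D are still high at day 8, BnaC07g40870D is high at day 0 and has 0 counts in both day 8 libraries, and BnaA10g20890D is near 0 counts outside heat plus TSA day 2 and day 4.

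Heat-only cultures share no library with the rule, so the change from day 2 to day 4 without TSA could be tested. It was tested with edgeR's quasi-likelihood test, over 64330 genes and with Benjamini-Hochberg adjustment, a gene being called at an adjusted p under 0.05. The filter on low counts used all 6 groups, so a high level in heat plus TSA day 4 alone could pass a gene, and all 401 members passed. Of these, 9 had at most 3 counts in sum in each of the heat-only groups. Of the members 309 were called higher at day 4, against 22.2% of all genes tested, and 1 was called lower, against 23.2%. The median log2 fold change was 3.10 over the members, 0.00 over all genes tested and -0.18 over the comparison genes, of which 26.7% were called higher and 38.1% lower. On the deposited scale 347 members had every heat-only day 4 library above every day 2 library, as did 31.5% of all genes. The other 91 members were not called in either direction. The estimate lay above 0 in 396 of the 401 members, and in 32287 of all 64330 genes tested. Heat-only day 4 replicate 1 was lower than replicates 2 and 3 over the members, with median differences of -1.24 and -1.08 against -0.07 and -0.19 over all genes. Without it 317 members were called higher, and the share of all genes called is not given for that fit.

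**Figure D3:**
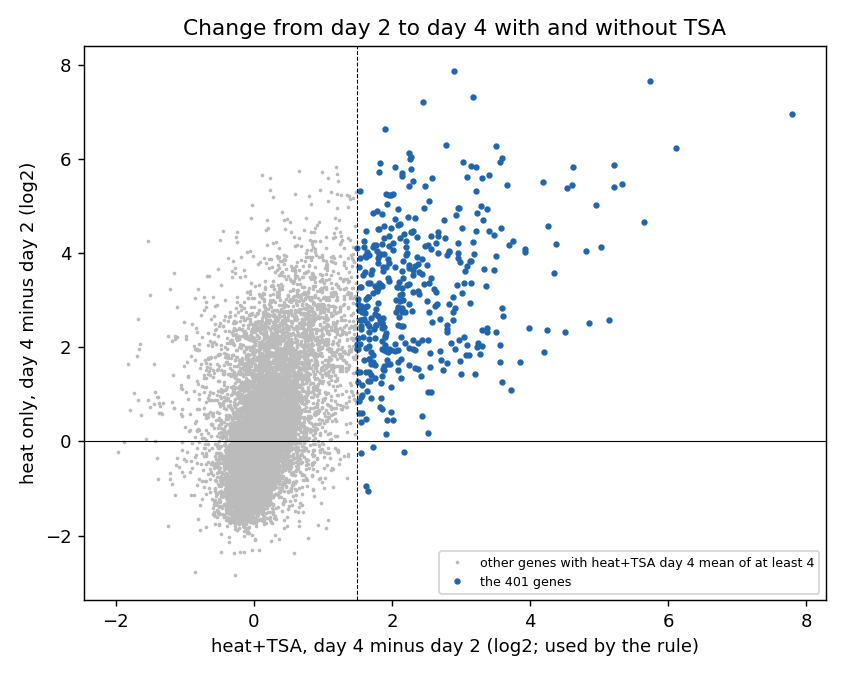
Difference of group means on the deposited log2 CPM scale, day 4 minus day 2, with TSA (horizontal, dashed line at the limit of 1.5 that the rule used) and without TSA (vertical). Blue points are the 401 members, grey points the 11914 other genes with a heat plus TSA day 4 mean of at least 4. Of the members 379 lie at or above 1 on the vertical axis, 21 between -1 and 1, and 1 below.

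Among the members called higher, those with the lowest p were BnaA04g16680D, BnaA10g23900D, BnaCnng46780D and BnaA10g11850D. BnaA10g23900D stood at 2.39, 2.03 and 2.18 in heat-only day 2 and at 5.0, 5.80 and 5.48 in day 4. The groups were well apart, with a log2 fold change of 3.10 ± 0.24 (SE; edgeR adjusted p = 1.98e-06). With TSA it stood at 3.31, 3.58 and 3.70 at day 2, at 6.25, 5.82 and 6.34 at day 4, and at 6.49 and 5.87 at day 8, so its day 4 and day 8 levels overlapped. BnaCnng46780D rose without TSA by 3.98 ± 0.33 (edgeR adjusted p = 2.03e-06) and BnaA10g11850D by 3.81 ± 0.33 (edgeR adjusted p = 2.05e-06). BnaA04g16680D had 1 count in each heat-only day 2 library and 77, 148 and 189 in day 4. The ratio of its scaled counts was 8.54 log2 units, with an exact 95% interval for counting error from 6.98 to 10.82.

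The member called lower was BnaC07g40870D. It stood at 5.04, 5.92 and 5.84 in heat-only day 2 and at 4.08, 4.69 and 5.2 in day 4, and the groups overlapped. Its log2 fold change was -1.10 ± 0.31 (SE; edgeR adjusted p = 9.03e-03). This call was lost with RLE scaling, with DESeq2 and in 4 of the fits that left out 1 library, where the estimates lay between -0.81 and -0.58. It was also among the 10 members already at a mean of 4 or more in fresh microspores, with 4.45, 4.63 and 4.77 at day 0.

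Both heat-only groups were also set against day 0. These comparisons share libraries with each other and with the one above, so their counts are given side by side and are not independent of it. At day 2, 233 members were called higher than at day 0 and 17 lower, against 31.1% and 25.3% of all genes tested. At day 4, 364 were called higher and 3 lower, against 35.5% and 32.6%. The median log2 fold change over the members was 3.65 at day 2 and 7.22 at day 4, against 0.07 and 0.02 over all genes tested. With members at 0 counts in a group set to the limit of 3 counts, and those at or under 3 counts in both groups left out, these medians were 3.52 over 360 members and 6.77 over 392. For the 180 members with at most 3 counts over day 0, the size of the change is poorly determined. BnaA06g25170D shows this, with 1 count over the day 0 libraries and 1830 over heat-only day 4, a ratio of 12.59 log2 units with an exact 95% counting interval from 10.11 to 17.90.

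A few members hardly followed this pattern. BnaC05g08770D and BnaA02g14990D were picked for a small range of group means outside heat plus TSA day 2 and day 4. The range was taken relative to the heat plus TSA day 4 level. Small changes among the other groups and a high heat plus TSA day 4 level were favoured by this pick. The values and tests below are therefore a description, and nothing is read from the lack of a change. BnaC05g08770D stood at 1.90, 2.11 and 2.02 at day 0, 2.78, 2.53 and 2.82 in heat-only day 2, and 3.16, 2.66 and 3.57 in heat-only day 4. With TSA it stood at 6.48, 7.74 and 6.75 at day 2 and 8.75, 8.82 and 8.06 at day 4, and at day 8 it was at 2.18 and 1.42. All 6 libraries of TSA day 2 and day 4 lay above the other 11. Without TSA its change from day 2 to day 4 was 0.30 ± 0.33 (SE; edgeR adjusted p = 4.77e-01). Its heat-only day 4 level was called higher than day 0 by 0.90 ± 0.34 (edgeR adjusted p = 2.70e-02), but with libraries scaled by their totals alone the estimate was -0.50. BnaA02g14990D was high throughout, at 5.80, 5.73 and 5.73 at day 0 and at 3.42, 4.63 and 4.82 in heat-only day 4, and fell by 1.63 log2 units between these groups (SE 0.29, edgeR adjusted p = 1.06e-04). In heat plus TSA day 4 it stood at 8.48, 8.01 and 8.44, above all libraries of the other groups.

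The members lowest in every day 0 and heat-only library were BnaA10g20890D, BnaA05g33120D and BnaC06g06100D. BnaA10g20890D had 0, 1 and 0 counts at day 0 and 0 in all 6 heat-only libraries. It had 67, 140 and 34 counts in heat plus TSA day 2, 890, 458 and 365 in day 4, and 1 and 0 in day 8. BnaC06g06100D had 0 counts in all day 0, heat-only day 2 and TSA day 8 libraries, 0, 0 and 1 in heat-only day 4, and 615, 310 and 493 in heat plus TSA day 4. BnaA05g33120D had at most 2 counts in any library without TSA and 800, 416 and 1123 in heat plus TSA day 4. At these depths the 3 genes were seen above 3 counts per library in heat plus TSA day 2 and day 4 and in no other group. None of the 3 was called in any of the 4 tested comparisons, where both groups were at or under 3 counts in sum.

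Cultures with and without TSA were set side by side at each day, as a description, since these contrasts use the libraries of the rule. The contrasts of heat plus TSA day 2 with either heat-only group cannot be told apart from the sequencing run. At day 2 every TSA library lay above every heat-only library in 307 of the 401 members, against 40.3% of all genes, and below in 62, against 31.4%. At day 4 the numbers were 260 above, against 39.5%, and 55 below, against 29.1%. The median difference between the groups was 3.55 log2 units at day 2 and 2.10 at day 4, against 0.22 and 0.31 over all genes. Over the comparison genes, chosen like the members for a high level in heat plus TSA day 4, it was 0.34 at day 2 and 0.86 at day 4, and 62.7% of them had every TSA library above at day 4. Between heat plus TSA day 2 and heat-only day 4 members differed in both directions, as did all genes. The median difference was -0.03, against 0.32 over all genes. Of the members 148 were at least 1 log2 unit higher with TSA, 143 at least 1 lower and 110 within 1. Over all 68491 genes these numbers were 23613, 17569 and 27309. In that pairing 128 members (31.9%) were higher with TSA without overlap, against 38.5% of all genes. Lower without overlap were 102 (25.4%), against 28.6%, and 171 overlapped. Nothing is read from these counts, which lie near the shares over all genes. The highest of the 6 group means was that of heat plus TSA day 4 for 286 members, heat-only day 4 for 72, heat plus TSA day 8 for 42 and heat-only day 2 for 1. The rule favours heat plus TSA day 4 and excludes heat plus TSA day 2 from this ranking. The same counts over all genes are not given, so nothing is read from it.

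By the difference at day 4, members fell into those at least 1 log2 unit higher with TSA (275), those within 1 (69) and those at least 1 lower (57). The 275 genes had a median level of -4.09 at day 0, -0.98 in heat-only day 2 and 2.33 in heat-only day 4, and of 3.49, 5.63 and -0.03 in heat plus TSA day 2, 4 and 8. The heat-only day 4 level defines these classes, so their calls in heat-only cultures are not counted.

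**Figure D4:**
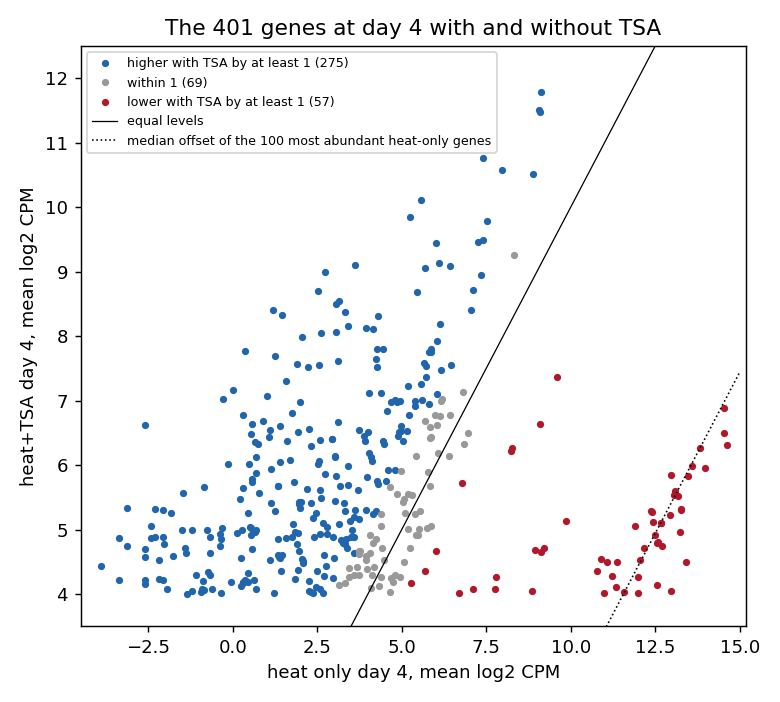
Group means at day 4 of the 401 members, heat-only (horizontal) against heat plus TSA (vertical), in log2 CPM. The solid line marks equal levels and the dotted line a difference of -7.56 log2 units, the median over the 100 genes most abundant in heat-only day 4. The 275 blue points are higher with TSA by at least 1, the 69 grey points are within 1, and the 57 red points are lower, most of them along the dotted line.

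The 57 genes lower with TSA included all 37 members that were among the 100 genes most abundant in heat-only day 4. Over these 37 the difference of the heat plus TSA day 4 mean from that of heat-only day 4 was -7.60 log2 units in the median, with an SD of 0.51 over the genes. The other 63 abundant genes lay at a median difference of -7.38 with an SD of 0.93, so the 37 stood at nearly the same distance below heat-only day 4 as abundant genes outside the set. Over all 100 the median was -7.56, and 40 of the 57 genes lay within 1.5 of it while 17 lay further above. The level of these genes moved from library to library within a group: over the 37 the median difference from heat-only day 4 was -11.82, -11.25 and -8.26 in the heat plus TSA day 2 libraries, -8.44, -7.14 and -7.20 in the day 4 libraries, and -15.55 and -11.36 in the day 8 libraries. The part of this common offset in the members' levels with TSA was not tested. Counts of calls are also given without these 37 genes.

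An example, chosen after its values were seen, is the pair BnaA05g25890D and BnaC05g39970D. BnaA05g25890D stood at 12.48, 13.33 and 13.04 in heat-only day 4 and at 1.13, 1.88 and 4.28 in heat plus TSA day 2. In heat plus TSA day 4 it stood at 4.28, 5.65 and 5.75, and its replicate 3 of day 2 therefore equalled its replicate 1 of day 4. BnaC05g39970D, on the C subgenome, stood at 0.59, 1.39 and 4.42 in heat plus TSA day 2 and 4.6, 5.90 and 6.05 in day 4. In the medians over the 37 abundant genes replicate 3 was likewise the high library at day 2 and replicate 1 the low one at day 4.

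Without the 37 genes, 302 of the remaining 364 members were called higher in heat-only day 4 than day 2, and 1 lower, against 22.2% and 23.2% of all genes tested. Against day 0, 196 were called higher and 17 lower in heat-only day 2, where the shares over all genes were 31.1% and 25.3%. In heat-only day 4, 327 were called higher and 3 lower, against 35.5% and 32.6%. The share called higher between the heat-only days was 83.0% without these genes and 77.1% with them. The 37 genes were picked by their heat-only day 4 level. Both comparisons with that group use this level, so nothing is read from the change in share.

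At day 8 most members were low again in the TSA cultures. Relative to heat plus TSA day 4 the median difference was -5.53 log2 units, against -0.44 over all genes and -0.38 over the comparison genes. Of the members 334 were lower by at least 1, 222 of them by at least 5 and 109 by at least 8, while 44 lay within 1 and 23 were higher by at least 1. Lower by at least 1 were also 26407 of all 68491 genes and 3715 of the 11914 comparison genes. Both day 8 libraries lay below every day 4 library in 327 members, against 45.3% of all genes, and above in 25, against 24.4%. The contrast uses the day 4 libraries on which members were chosen for a high level, so it is a description. The day 8 cultures also had the lower TSA dose by their titles, and day 4 named no sequencing run, so time, dose and run cannot be told apart.

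The change from day 0 to heat plus TSA day 8 uses no library of the rule and was tested. Of the members 222 were called higher at day 8 and 17 lower, against 29.0% and 29.2% of all genes tested, with a median log2 fold change of 4.05 against 0.00. Without the 37 abundant genes 222 were called higher and 9 lower. The day 8 libraries did not agree well over the members: replicate 2 lay above replicate 1 in 302 of 401, by 1.66 in the median, against -0.06 over all genes. Without replicate 1 the test called 231 higher and 12 lower, and without replicate 2 it called 157 higher and 31 lower. Day 0 and day 8 replicates of the same number share a lane label, and with the replicate number as a block the counts were 228 and 20. Leaving out a day 8 replicate left the other alone for that group. The share of all genes called is not given for these fits, so their counts cannot be set against it. Most members lay below their day 4 level at day 8.

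**Figure D5:**
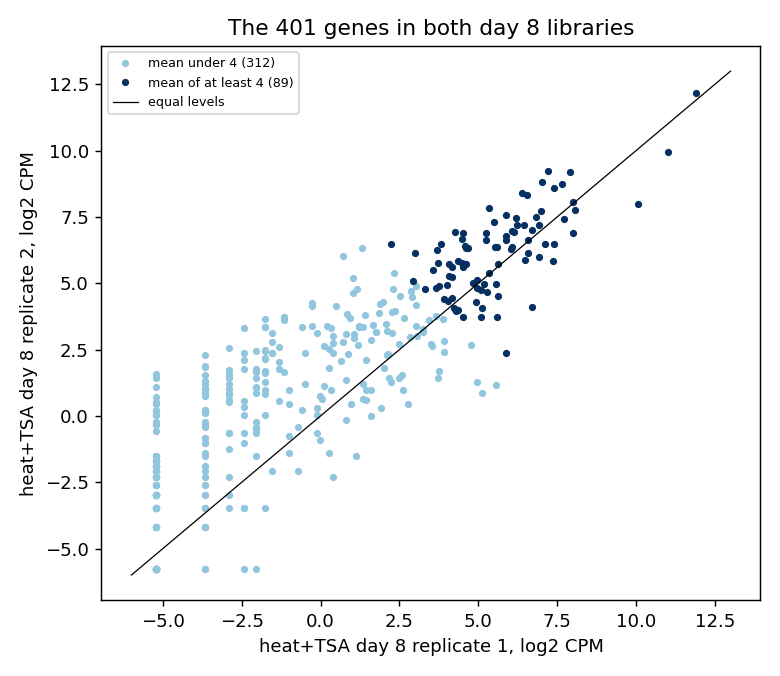
Deposited log2 CPM of the 401 members in heat plus TSA day 8 replicate 1 (horizontal) and replicate 2 (vertical), with a line at equal levels. The 89 dark points have a mean of at least 4, and most of the 312 light points lie above the line. Columns of points at the left are genes with 0, 1 or a few counts in replicate 1.

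A minority stayed high. At day 8, 89 members had a mean of at least 4 log2 CPM, 82 by replicate 1 and 101 by replicate 2, while 193 had a mean under 0. Of the 89, 63 were among the genes higher with TSA at day 4, 21 among those within 1, and 5 among those lower. Their median level was -2.08 at day 0, 0.87 and 4.28 in heat-only day 2 and day 4, and 3.69, 5.75 and 5.57 in heat plus TSA day 2, 4 and 8. The other members went from 5.21 at day 4 to -0.94 at day 8. These 89 differed between day 8 libraries by 0.76 in the median.

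Among members higher at day 8 than at day 0, the lowest p were those of BnaA02g09590D, BnaA08g02790D and BnaA10g11850D. BnaA02g09590D stood at -0.47, -0.88 and -1.44 at day 0, at 6.81, 7.46 and 7.38 in heat plus TSA day 4, and at 7.13 and 6.48 at day 8. It overlapped between day 4 and day 8, and its change from day 0 to day 8 was 7.43 ± 0.33 (SE; edgeR adjusted p = 4.61e-11). BnaA10g11850D stood at -1.12, -1.36 and -0.70 at day 0 and at 6.04 and 6.31 at day 8, a change of 7.26 ± 0.35 (edgeR adjusted p = 1.03e-10). BnaA08g02790D went on to higher levels, at 8.38, 8.04 and 8.12 in heat plus TSA day 4 and 11.03 and 9.96 at day 8. From 0, 1 and 1 counts at day 0 and 39221 and 27425 at day 8, its ratio was 15.78 log2 units, with an exact 95% counting interval from 13.93 to 18.83. BnaCnng22380D, one of the 6 with the largest rise by day 4, also stood higher at day 8, at 6.53 and 8.33 against 5.68, 5.30 and 4.88 at day 4.

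Among members lower at day 8 than at day 0, the lowest p were those of BnaC07g40870D, BnaA03g24360D and BnaA04g00580D. BnaC07g40870D had 920, 793 and 110 counts at day 0, 437, 267 and 559 in heat plus TSA day 4, and 0 in both day 8 libraries. With 3 counts over the group as the limit, its summed scaled counts at day 8 were at least 8.49 log2 units below day 0, a log2 ratio of -8.49. This limit covers counting error only, and the test gave an edgeR adjusted p = 1.64e-08. BnaA03g24360D stood at 0.59, 0.57 and 0.68 at day 0, 5.22, 5.45 and 5.55 in heat plus TSA day 4, and -3.65 and -1.53 at day 8, a change from day 0 of -2.91 ± 0.50 (edgeR adjusted p = 9.71e-05). BnaA04g00580D stood at 3.5, 3.66 and 3.58 at day 0, 6.60, 5.67 and 4.90 in heat plus TSA day 4, and 0.79 and 1.34 at day 8. It fell by 2.61 log2 units (SE 0.45, edgeR adjusted p = 1.08e-04). In all 3 genes both day 8 libraries lay below every day 0 library.

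By gene ID, 204 members lay on the A subgenome, which is 0.630% of its 32358 genes in the table, 195 on the C subgenome, which is 0.543% of 35907, and 2 had no subgenome. By chromosome the share ran from 0.401% on C09 to 0.838% on A08. In 14 cases a member and the next ID in order were both members, which involved 27 genes. No such count over all genes is given, so nothing is read from it. For each member the most similar other member was found by the root mean square difference over the 17 libraries, and 93 pairs chose each other. Of these, 48 joined a gene of the A with one of the C subgenome, 11 of them on chromosomes of the same number, and among the 20 closest pairs 14 joined A with C. The members were spread nearly evenly over the subgenomes, with 204 and 195, so pairs drawn at random would often join A with C. Nothing is read from these counts.

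The closest pair was BnaA03g45080D with BnaC07g37060D, at a root mean square difference of 0.21 log2 units. Next was BnaA05g25890D with BnaC05g39970D, at 0.33. The highest member, BnaA04g15830D, paired with BnaC04g39100D at 0.57, and BnaC06g06100D, among the lowest without TSA, paired with BnaA06g06100D at 0.44. How reads shared by near-identical copies were assigned is not given in the sources used here. A close match of an A and a C gene may therefore include shared reads, which was not tested, so values of single copies are uncertain. The pairs were matched by level alone, and whether they are copies of one another was not checked.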

How the data were processed

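Libraries were TruSeq libraries from DNase-treated RNA, per the labels' protocols. The authors deposited unnormalized counts of 101040 gene IDs, per the file headers, and log2 CPM values of 68491 of them. How reads were aligned, counted, filtered and scaled, and on which build and annotation, is not given in the sources used here. Processing notes by the submitters name limma. Recomputing the authors' deposited log2 CPM values as log2 of (count + 0.5) per 1000000 of a scaled library size left differences of at most 0.00518. The authors' table of fold changes was not used.

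Columns were matched to samples by title, and 0 were left unmatched. Counts were tested with edgeR 4.0.16 in R 4.3.3 (TMM scaling, filterByExpr, robust quasi-likelihood fit, 1 coefficient per group over all 17 libraries, two-sided, Benjamini-Hochberg over 64330 genes). The procedure was tested on simulated data. Between the heat-only days it recovered 23% of changes of 1 log2 unit and 74% of changes of 2. For heat plus TSA day 8 against day 0 these shares were 18% and 75%. False calls made up 3.96% and 3.12% of all calls. A gene not called may therefore still have changed. An SE restates the test. Alternatives were other scalings, no filter, DESeq2 1.42.0, limma 3.58.1 on the deposited values, a replicate block and leaving out each library. Intervals and limits from counts cover counting error only.

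The members, gene lists and tests were chosen with earlier results of these data known. Named genes were the 6 with the largest rise, the 4 with the highest heat plus TSA day 4 mean, up to 4 called each way between the heat-only days and 3 each way between day 0 and heat plus TSA day 8 by lowest p. To these came the 3 lowest outside TSA cultures and those at the limits of the rule. Also named were the 3 with the smallest range of group means outside heat plus TSA day 2 and day 4. That range was divided by the heat plus TSA day 4 mean. BnaA05g25890D and the paired genes were named after their values were seen. Planned lists by marker, product and promoter motif could not be applied to the IDs.

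Replicate numbers of day 0 and heat plus TSA day 8 mark a shared lane label, so they pair those samples. Their deviations from the group means correlated at 0.106 and -0.0273 across genes.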

Additional observations from a re-analysis of the deposited data

How the results depend on the processing

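Counts of members called higher stayed within 1.5 times the reported ones under every alternative, at 260 to 347 for heat-only day 4 against day 2, 190 to 262 for heat-only day 2 against day 0, 336 to 378 for heat-only day 4 against day 0 and 157 to 245 for heat plus TSA day 8 against day 0. Counts called lower were small and moved more. The share of all genes called is not given for the alternative fits. Between the heat-only days the count was 0 with RLE factors, 0 with DESeq2, 4 with library totals and 0 to 1 with a library left out. For heat-only day 4 against day 0 it was 11 with library totals. For heat plus TSA day 8 against day 0 it was 12 to 31 with a library left out (31 without day 8 replicate 2) and 9 without the 100 genes most abundant in heat-only day 4, an alternative chosen after seeing the data. Library totals moved the median of all genes by -0.70 between the heat-only days and by -1.31 from day 0 to heat-only day 4, where the members' medians were then 2.37 and 5.93. With these totals the change of BnaC05g08770D from day 0 to heat-only day 4 was reversed, at -0.50.

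With the replicate number as a block, 306, 237, 366 and 228 members were called higher in the 4 comparisons and 1, 18, 4 and 20 lower, in the order above, and no count moved by 1.5 times. In the other 3 tested comparisons the replicates share only a number: deviations correlated at 0.295, 0.0801 and 0.227 between the heat-only days. The rule gave 851 genes at a rise of 1, 235 at a rise of 2, 239 at a level of 5, and 362 to 496 with a library left out. Without the 100 genes most abundant in heat-only day 4, the members lower with TSA at day 4 numbered 20. Of 879 alternatives for called changes of named genes, 31 lost the call, in 11 of 69 changes, and 1 reversed. The cause of these shifts was not tested. Depth limits low levels: 3 counts stand for -0.22 log2 CPM in day 0 replicate 3 and for -0.69, -0.95 and -1.63 in the heat-only day 4 libraries.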
